A study of Danio rerio with 10 samples.

Results

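The genes described here are those of the Fraser complex and of the basement membrane of the zebrafish fin fold: *fras1*, *frem1a*, *frem1b*, *frem2a*, *frem2b*, *frem3*, *hmcn1*, *hmcn2*, *fbln1* and *lama5*. They were taken by gene name from the table of reads counted per gene, in which these 10 names stand for 11 of 32520 Ensembl identifiers, because *hmcn2* has 2. All 11 identifiers passed the filter on low counts, as did 20007 identifiers in all. RNA had been sequenced from EGFP-positive cells sorted from 48 hpf embryos, with 2 libraries from *Tg(Mmu:Prx1-EGFP);prdm1a-/-* embryos (homozygous for the *m805* allele, also called *nrd*, and picked by their pigment phenotype) and 2 from *Tg(Mmu:Prx1-EGFP)* WT embryos (the WT strain was AB). All 4 libraries carry the same transgene, in which a mouse *Prx1* enhancer drives EGFP in the pectoral fin but also in the pharyngeal arches and the dorsal head. Heads and arches were therefore cut away before sorting. The authors allowed that remnants of arch and dorsal head may still have been present. Embryos came from intercrosses of *Tg(Mmu:Prx1-EGFP);prdm1a+/-* fish, and whether the WT pools held heterozygous siblings is not stated. Embryos were pooled for each library, and the variation within a genotype is thus between pools of embryos.

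In the developing fin fold, the epidermis forms a double sheet whose layers are held to the tissue between them by their basement membranes. Fras1 and the Frem proteins are very large extracellular proteins. Fras1, Frem1 and Frem2 assemble into one complex beneath this membrane. In mice, Fras1 and Frem2 are supplied by the epidermis and Frem1 by the dermal mesenchyme. When a subunit is missing the epidermis detaches: zebrafish *fras1* (*pinfin*), *frem2a* (*blasen*) and *frem1a* (*rafels*) mutants have blistered fin folds, and loss of FRAS1 or FREM2 in humans causes Fraser syndrome. Hemicentin 1, a long immunoglobulin-repeat matrix protein mutated in *nagel*, and laminin α5, mutated in *fransen*, are needed for the same fold, while hemicentin 2 and the hemicentin partner fibulin 1 act beside hemicentin 1.

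Library totals were 20303621 and 26798799 counts for *prdm1a-/-* replicates 1 and 2 and 22865061 and 22008119 counts for WT replicates 1 and 2. Values are given as CPM, read counts scaled to library size with TMM factors, and only between libraries of one gene, because transcript length was not used and CPM does not rank different genes. Libraries were compared within replicate number, that is, each *prdm1a-/-* library with the WT library of the same number, by a quasi-likelihood test in edgeR, in which the replicate number was a block and p-values were adjusted over all genes tested (Benjamini-Hochberg). The labels do not say that a number marks a shared day or clutch. With genotype as the only term, edgeR called none of the 11 identifiers and no other gene (0.0% of genes, adjusted p of 0.9999 for each of the 11; 376 genes and 0 of the 11 had an unadjusted p under 0.05). With 2 libraries against 2, an exact permutation test of a single gene that ignores the replicate number cannot give a two-sided p below 0.333. A permutation within replicate number has fewer arrangements still. The targeted gene, *prdm1a*, had 2505 and 7847 counts in *prdm1a-/-* replicates 1 and 2 and 1147 and 5222 counts in WT replicates 1 and 2. The allele is a premature stop whose transcript is still counted, so these values do not check the labels. All 13 fin mesenchyme markers examined (among them *tbx5a*, *prrx1a* and *fgf10a*) were detected in every library. However, 11 of the 13 had log2 fold changes below 0 in the fit with the block. Of these, 2 were called lower in *prdm1a-/-*, as were 0.62% of all genes tested: *hand2* (-1.12, adjusted p = 0.00525) and *meis3* (-0.77, adjusted p = 0.0279). Also detected were keratins and other genes of the epidermis. In such bulk samples, fewer cells of a type and less RNA per cell cannot be told apart.

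*frem3* and *frem2b* were higher in sorted *prdm1a-/-* cells, by 3.53-fold and 2.45-fold. They were the 2 identifiers of the 11 called at an adjusted p under 0.05, both upward, where 1.01% of all genes tested were called, 0.395% upward and 0.62% downward. *hmcn1* was 1.66-fold higher and narrowly missed the threshold (adjusted p = 0.0583). The remaining 8 identifiers had log2 fold changes between -0.37 (*frem1b*) and 0.40 (*frem1a*), with adjusted p-values of 0.251 or more. The median log2 fold change was 0.28 over the 11 identifiers and 0.0068 over all genes tested. At an unadjusted p under 0.05, 5 of the 11 were higher and 1 was lower in *prdm1a-/-* libraries, beside 6.4% higher and 6.05% lower among all genes tested. Of the 11, 6 identifiers were higher in both pairs of libraries and 1 was lower in both, against 29.2% and 29.0% of all genes. The groups overlapped for every identifier but that of *frem1b*, for which the *prdm1a-/-* values were the lower ones, as for 13.5% of all genes (12.7% had both *prdm1a-/-* libraries above). For 10 of the 11 identifiers the difference between replicate numbers was larger than that between genotypes.

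**Figure D1:**
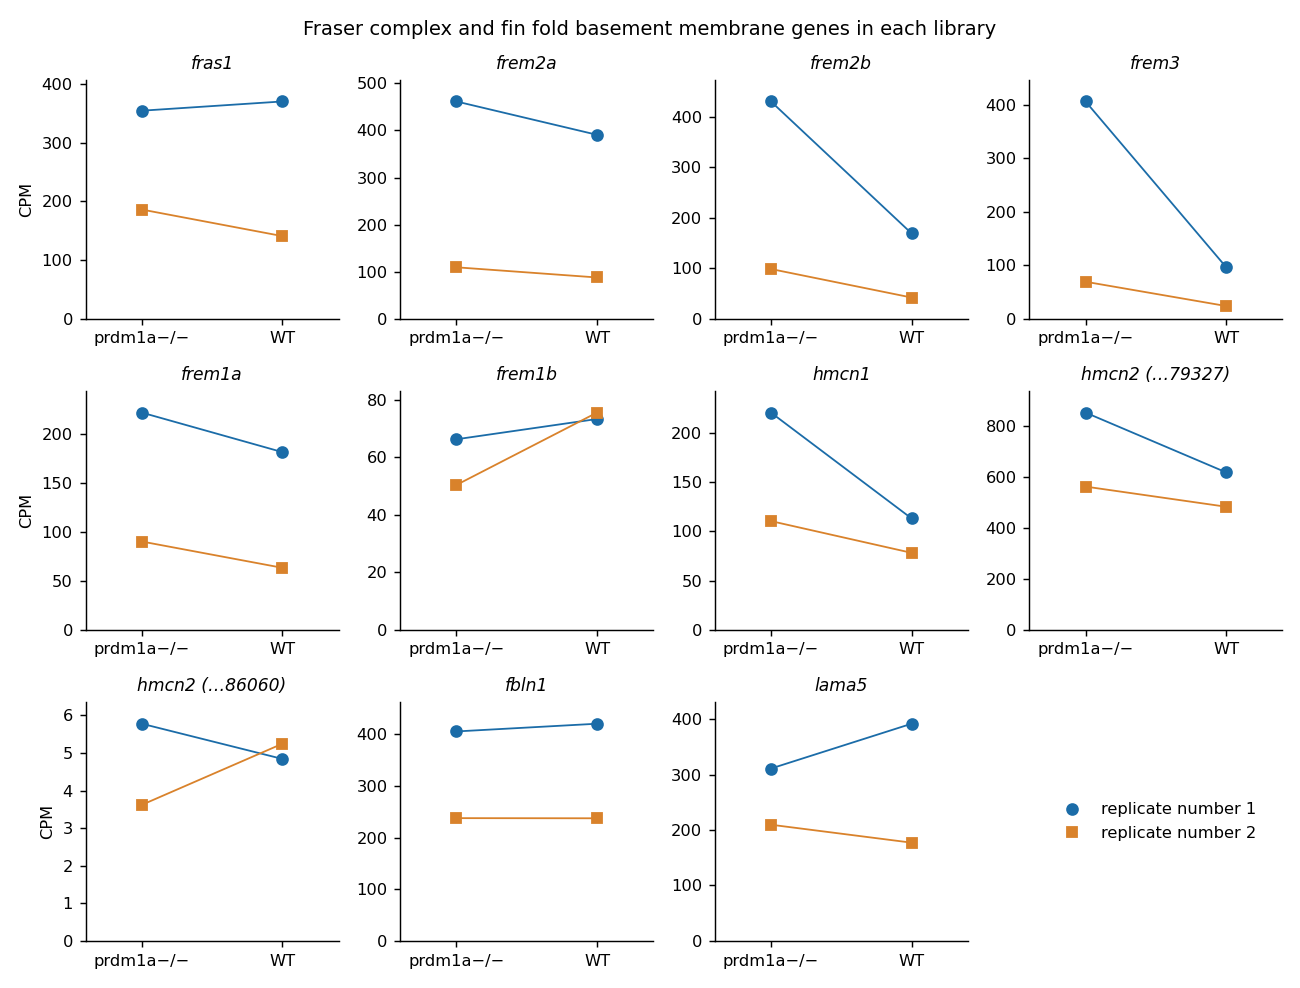
CPM of each gene (vertical axis, from 0) in the *prdm1a-/-* and WT libraries, with a line joining the libraries of the same replicate number. For *frem3* and *frem2b* both lines fall steeply toward WT, for instance 407 against 96.3 CPM for *frem3* in replicates 1, while the libraries numbered 2 (squares) lie below those numbered 1 (circles) for most genes.

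*frem3* (ENSDARG00000074677) encodes the Frem protein that, in mice, can share the epithelial basement membrane with Fras1 and Frem2. It had 8307 and 1795 counts in *prdm1a-/-* replicates 1 and 2, against 2209 and 531 counts in WT replicates 1 and 2. In CPM this was 407 and 69.1 in *prdm1a-/-* libraries and 96.3 and 23.6 in WT libraries. Each *prdm1a-/-* library was above the WT library of its number, but *prdm1a-/-* replicate 2 was below WT replicate 1, so the genotypes overlapped. Within replicates 1 the log2 ratio was 2.08, and within replicates 2 it was 1.55, with counting errors of 0.035 and 0.071, so the pairs differed from each other by more than counting error. Its fitted log2 fold change of 1.82 (SE 0.161) had an adjusted p of 8.46e-04, which ranked *frem3* 12th of the 20007 genes by p and 6th among those that were higher. Over 6 fits with the replicate block it stayed between 1.82 and 1.88, with adjusted p-values from 1.50e-15 to 0.00594. With genotype alone it was 1.99 (SE 1.12) and the adjusted p was 0.9999.

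*frem2b* (ENSDARG00000102626) and *frem2a* (ENSDARG00000076856) are the zebrafish duplicates of Frem2, the subunit whose loss in *blasen* is that of the *a* copy. *frem2b* had 431 and 98.5 CPM in *prdm1a-/-* replicates 1 and 2 (8803 and 2559 counts) and 169 and 41.9 CPM in WT replicates 1 and 2 (3878 and 942 counts). Within replicates 1 the log2 ratio was 1.35, and within replicates 2 it was 1.23. These lay closer together than the ratios of *frem3*. The fitted log2 fold change was 1.29 (SE 0.135) with an adjusted p of 0.00204, and with adjusted p-values from 1.04e-09 to 0.00904 over the fits with the block. With genotype alone it was 1.33 (SE 0.998) and the adjusted p was 0.9999. *frem2a* had 462 and 109 CPM in *prdm1a-/-* replicates 1 and 2 and 391 and 87.5 CPM in WT replicates 1 and 2. Its log2 ratios were 0.24 and 0.32, and its log2 fold change of 0.28 (SE 0.133, adjusted p = 0.430) did not pass the test.

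**Figure D2:**
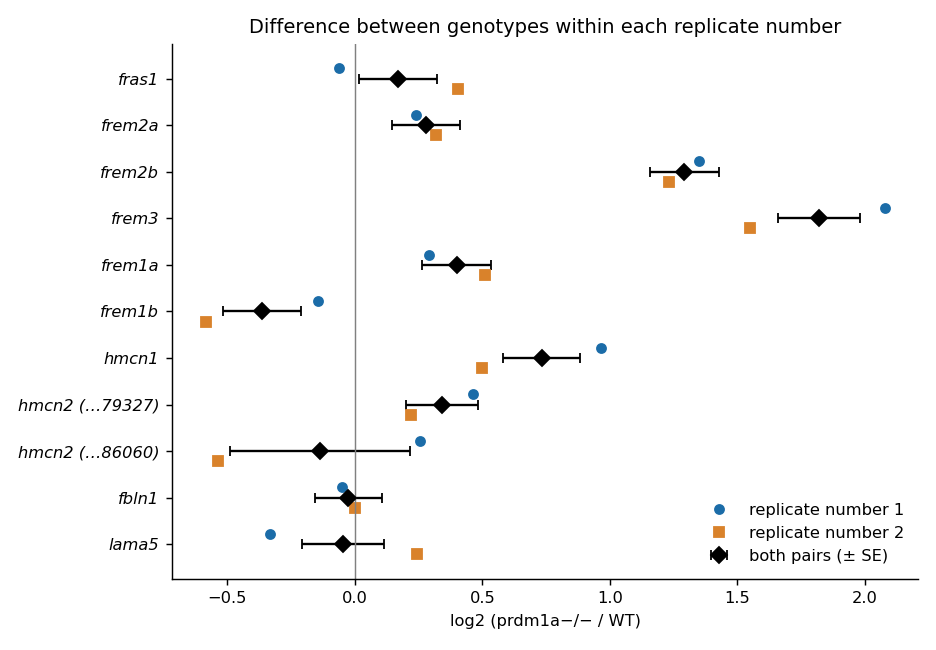
Log2 ratio of *prdm1a-/-* over WT for each gene, as the fitted value over both pairs (diamonds, ± SE) and within replicate numbers 1 (circles) and 2 (squares). *frem3* (1.82) and *frem2b* (1.29) stand to the right of the other genes, followed by *hmcn1* (0.73), and *lama5*, *fras1*, *fbln1* and the smaller *hmcn2* identifier have values on either side of 0.

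Because a ratio of counts within one library needs no scaling between libraries, the duplicates were also set against each other. There were 0.933 and 0.902 *frem2b* counts for each *frem2a* count in *prdm1a-/-* replicates 1 and 2, against 0.433 and 0.478 in WT replicates 1 and 2. On the log2 scale this ratio differed by 1.11 (counting error 0.035) between the genotypes of replicates 1 and by 0.92 (counting error 0.069) between those of replicates 2. The genotypes did not overlap, and the replicates of a genotype lay close together although both genes differed about as much between the replicate numbers as any described here. This ratio holds the same counts as the call of *frem2b* and is not separate evidence. How often the ratios of other gene pairs do not overlap was not computed. The ratio of *frem3* to *fras1* was 1.15 and 0.371 in *prdm1a-/-* replicates 1 and 2 and 0.260 and 0.168 in WT replicates 1 and 2. It was higher in *prdm1a-/-* in both pairs, but its log2 change of 2.14 in replicates 1 was far from that of 1.15 in replicates 2. Whether reads were shared between the *frem2* copies in the counting is not given in the sources used here.

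**Figure D3:**
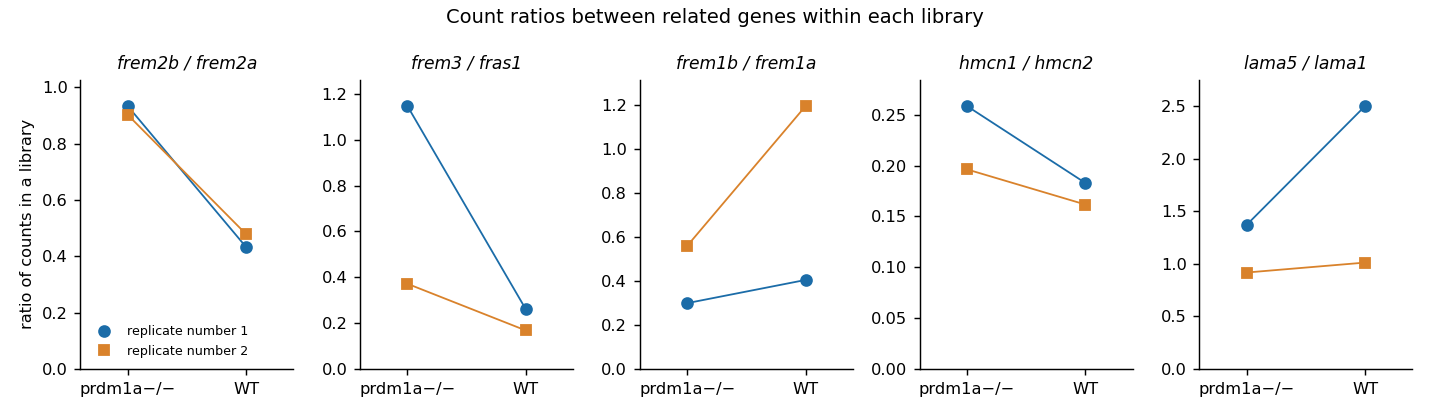
Ratio of the counts of 2 related genes within each library (vertical axes, from 0) in *prdm1a-/-* and WT, with lines joining libraries of the same replicate number. For *frem2b* over *frem2a* the replicates nearly coincide, at 0.933 and 0.902 in *prdm1a-/-* and 0.433 and 0.478 in WT, whereas the other ratios also depend on the replicate number.

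*fras1* (ENSDARG00000054619), which encodes the founding subunit of the complex, had 354 and 186 CPM in *prdm1a-/-* replicates 1 and 2 and 370 and 141 CPM in WT replicates 1 and 2. The pairs pointed in opposite directions, with log2 ratios of -0.063 in replicates 1 and 0.40 in replicates 2, and the fitted value was 0.17 (SE 0.152, adjusted p = 0.721). Summed over *fras1* and the 5 *frem* genes, there were 1942 and 603 CPM in *prdm1a-/-* replicates 1 and 2. In WT replicates 1 and 2 there were 1281 and 433 CPM. This sum gives long transcripts more weight.

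The duplicates of Frem1 differed from each other in sign. *frem1a* (ENSDARG00000069473), the gene of *rafels*, had 222 and 90.2 CPM in *prdm1a-/-* replicates 1 and 2 and 182 and 63.3 CPM in WT replicates 1 and 2. It was higher in both pairs, but its log2 fold change of 0.40 (SE 0.135) did not pass the test, at an adjusted p of 0.251. *frem1b* (ENSDARG00000062402) had 66.2 and 50.3 CPM in *prdm1a-/-* replicates 1 and 2 and 73.3 and 75.5 CPM in WT replicates 1 and 2. Each *prdm1a-/-* value was under each WT value, with log2 ratios of -0.15 and -0.58, and the log2 fold change of -0.37 (SE 0.154, adjusted p = 0.367) did not pass the test either. The *frem1b* to *frem1a* count ratio was 0.298 and 0.558 in *prdm1a-/-* replicates 1 and 2 and 0.404 and 1.19 in WT replicates 1 and 2, so it was lower in *prdm1a-/-* within each number while the genotypes overlapped.

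Of the hemicentins, *hmcn1* (ENSDARG00000016936) had 221 and 110.5 CPM in *prdm1a-/-* replicates 1 and 2 and 113 and 78.2 CPM in WT replicates 1 and 2. It was higher in both pairs, by log2 ratios of 0.96 and 0.50, and its lower *prdm1a-/-* library was just under its higher WT library. The log2 fold change was 0.73 (SE 0.151), and its adjusted p lay on both sides of the threshold, under 0.05 in 4 of 6 fits with the block (from 0.0042 without a filter on low counts to 0.107 with RLE size factors). With *frem3* and *frem2b* this made 3 of the 11 identifiers called with DESeq2 (0.933% of all genes), limma-voom (2.17%), no filter on low counts (2.43%) and a minimum of 10 counts in every library (1.68%), and 2 of the 11 with RLE size factors (0.64%). With DESeq2 and no block, 0 of the 11 were called (0.184%). Each share is over the genes tested in its own fit. These were 26140 with DESeq2 and without a filter, 17404 with the minimum of 10 counts and 20007 otherwise. The larger *hmcn2* identifier (ENSDARG00000079327) had 853 and 563 CPM in *prdm1a-/-* replicates 1 and 2 and 618 and 483 CPM in WT replicates 1 and 2. Its log2 fold change of 0.34 (SE 0.141) had an adjusted p of 0.358. The smaller one (ENSDARG00000086060) held only 94 to 118 counts in a library, and its log2 fold change of -0.14 had an SE of 0.354. Counts of 1 gene may have been split between the 2 identifiers. *fbln1* (ENSDARG00000103311) had 405 and 238 CPM in *prdm1a-/-* replicates 1 and 2 and 420.4 and 237 CPM in WT replicates 1 and 2. Its log2 ratios were -0.052 and 0.0018, and its log2 fold change was -0.025 (SE 0.133, adjusted p = 0.969), the smallest difference of the genes described here.

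*lama5* (ENSDARG00000058543) encodes the laminin α5 chain, which joins a β and a γ chain into a laminin of the epidermal basement membrane. It had 311 and 209.6 CPM in *prdm1a-/-* replicates 1 and 2 and 392 and 177 CPM in WT replicates 1 and 2. The log2 ratios of -0.33 and 0.24 had opposite signs, and the fitted value was -0.046 (SE 0.161, adjusted p = 0.946). Of 36 genes listed for the core of basement membranes (other laminin chains, nidogens, collagens IV, VII and XVIII, perlecan, agrin and secreted partners), 33 were in the table and 32 were tested. None was called in either direction by edgeR with the block, where 1.01% of all genes tested were called. At an unadjusted p under 0.05, 4 of the 32 were higher and 2 lower, beside 6.4% and 6.05% of all genes tested. The median log2 fold change of the 32 was 0.088. The 3 named here had the highest mean CPM, a rule for choosing names that, without transcript length, does not rank expression. They were *sparc*, a matrix glycoprotein that binds collagen (log2 fold change 0.13, adjusted p = 0.768), the collagen IV chain *col4a5* (0.096, adjusted p = 0.842) and the nidogen *nid2a* (-0.23, adjusted p = 0.542).

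Of 24 genes listed as partners of the Fraser complex or as receptors for these membranes (integrin chains, dystroglycan, the adaptor *grip1*, the protease *furina* and others), 23 were tested. Only *itga9* (ENSDARG00000032435), the integrin α9 chain, passed the test, and it was lower in *prdm1a-/-*, as were 0.62% of all genes tested. *itga9* had 41.6 and 65.9 CPM in *prdm1a-/-* replicates 1 and 2 and 65.3 and 109.5 CPM in WT replicates 1 and 2, with log2 ratios of -0.65 and -0.73. The fitted log2 fold change was -0.69 (SE 0.137) and its adjusted p was 0.0492. The adjusted p was 0.0713 with DESeq2 and 0.0898 with RLE size factors, both with the block, and 0.9999 with genotype alone. The list had a median log2 fold change of 0.085. At an unadjusted p under 0.05, 4 of its 23 tested genes were higher and 4 lower, beside 6.4% and 6.05% of all genes tested.

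Between replicate numbers the Fraser complex genes differed by more than between genotypes, *frem1b* excepted. In the fit with the block, 9 of the 11 identifiers were lower in the libraries numbered 2 than in those numbered 1 at an adjusted p under 0.05, where 24.7% of all genes tested were called in either direction, 10.6% lower and 14.1% higher. The largest of these log2 differences were those of *frem3* (-2.30, SE 0.164), *frem2a* (-2.12, SE 0.138) and *frem2b* (-2.07, SE 0.138). *frem1a* (-1.41) and *fras1* (-1.16) followed, then *lama5* (-0.86), *fbln1* (-0.80), *hmcn1* (-0.77) and the larger *hmcn2* identifier (-0.48). *frem1b* (-0.18, adjusted p = 0.459) and the smaller *hmcn2* identifier were not called. Within a genotype, *frem2a* was 4.23-fold higher in *prdm1a-/-* replicate 1 than in *prdm1a-/-* replicate 2, and 4.46-fold higher in WT replicate 1 than in WT replicate 2. The same comparison gave 5.89-fold in *prdm1a-/-* and 4.08-fold in WT for *frem3*. Of the other cell types' markers, 10 of 10 skeletal muscle genes were also called lower in the libraries numbered 2. So were 9 of 10 genes of the apical fold, the epidermal rim of the fin. Of 9 cartilage genes, 6 were called lower and 1 higher (*sox9a*, 0.79), and of 13 fin mesenchyme genes 6 were lower and 2 higher. The cartilage gene *col2a1a* had 16294 and 280 CPM in *prdm1a-/-* replicates 1 and 2. In WT replicates 1 and 2 it had 21511 and 672 CPM. Of 4 notochord genes tested, 2 were called lower, *col8a1a* (-6.23) and *tbxta* (-4.69), and none higher. Between genotypes, 10 of 10 skeletal muscle genes had log2 fold changes above 0 (median 0.55, none called and 5 at an unadjusted p under 0.05). Only 4 of the 10 were higher in both pairs, with a median log2 ratio of -0.090 within replicates 1 and 1.02 within replicates 2. All 9 of 9 cartilage genes had values below 0 (median -0.53, none called and 5 at an unadjusted p under 0.05). Of the 9, 4 had log2 ratios below 0 in both pairs, and *matn1*, with 0 counts in *prdm1a-/-* replicate 1, had no ratio there. Among all 20007 genes tested, 10151 had values above 0 and 9856 below, with 6.4% higher and 6.05% lower at an unadjusted p under 0.05. All 6 genes of neural crest and pigment cells were below 0 (median -1.38) and 3 were called lower in *prdm1a-/-*, as were 0.62% of all genes tested. The *prdm1a-/-* embryos were picked by their pigment phenotype, so this count is not independent of how they were chosen. The part of these cell types in the differences between replicate numbers, and in those of *frem3* and *frem2b* between genotypes, was not tested.

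**Figure D4:**
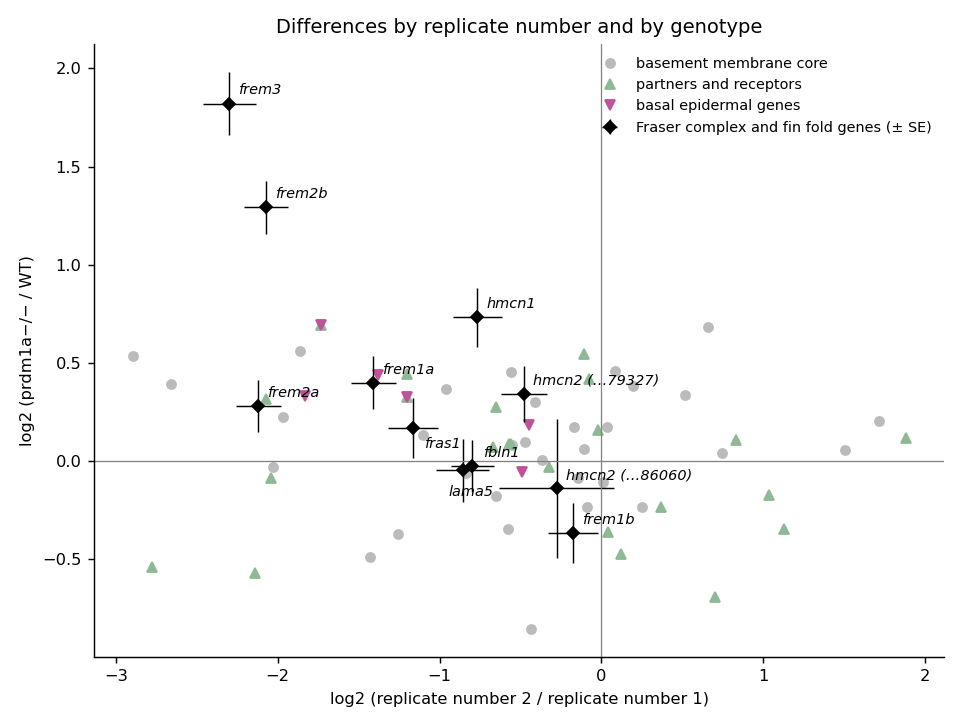
Log2 difference between replicate numbers (2 over 1, horizontal axis) and between genotypes (*prdm1a-/-* over WT, vertical axis) for the Fraser complex and fin fold genes (diamonds, ± SE), core basement membrane genes (circles), partners and receptors (upward triangles) and 6 genes of the basal epidermis (downward triangles). *frem3*, *frem2b* and *frem2a* lie together at the left, between -2.30 and -2.07, but only *frem3* and *frem2b* stand apart upward, at 1.82 and 1.29. Some core and partner genes lie farther left, such as *col4a3* (-2.90) and *vwa2* (-2.78).

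Epidermal transcripts are given beside these genes, because epidermis is a source of several of them. Of 29 genes listed for epidermis and periderm, 28 were tested, with a median log2 fold change of 0.19. Of these, 1 was called higher in *prdm1a-/-* (the keratin *krt92*, log2 fold change 0.76) and none lower, beside 0.395% higher and 0.62% lower among all genes tested. A count at an unadjusted p under 0.05 gave 6 of the 28 higher and 1 lower, beside 6.4% and 6.05% of all genes tested. None of the 29 was at 0 in all libraries, and their sum was 16620 to 20437 CPM in *prdm1a-/-* libraries and 17513 to 18763 CPM in WT libraries. Between replicate numbers, 8 of the 28 were called lower and 8 higher in the libraries numbered 2, with a median log2 difference of 0.20. After the values had been seen, genes known from basal keratinocytes (*tp63*, *krt5*, *krtt1c19e*, *cldni*, *col17a1a* and *itgb4*) were set apart from those of the outer layer (*krt4*, *krt17*, *cyt1*, *cyt1l*, *evpla*, *ppl* and *cldne*). No test was run on either group as a set. Of the basal genes, *col17a1a* and *itgb4* came from the list of partners and receptors. Others of that list were not taken, among them *col17a1b* (log2 fold change -0.084), *itga6a* (-0.57), *itga6b* (0.45) and *itga3b* (0.32). The basal genes summed to 4113 and 2272 CPM in *prdm1a-/-* replicates 1 and 2 and to 3900.3 and 1620.3 CPM in WT replicates 1 and 2. The keratin *krt5* alone gave 2552 and 1184 CPM of this in *prdm1a-/-* replicates 1 and 2 and 2272 and 721 CPM in WT replicates 1 and 2. The sum, and ratios to it, therefore weigh *krt5* most. In the fit with the block, 5 of these 6 were called lower in the libraries numbered 2, with a median log2 difference of -1.29. The outer layer genes had a median of 0.43, and 0 of 7 were called lower and 2 higher. Listed epidermal genes put in neither group went both ways. Among them, *cldn1* (-1.68) and *krt91* (-1.42) were called lower, and *epcam* (1.32) and *cdh1* (1.13) were called higher. Among all genes tested, 10.6% were called lower and 14.1% higher. The groups were split with these values known, so the contrast between them is only a description. Between genotypes the median log2 ratio of the basal genes was 0.065 within replicates 1, and 0.60 within replicates 2. That of the outer layer genes was 0.66 within replicates 1 and -0.61 within replicates 2, the opposite order.

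Set against the summed basal genes within each library, *frem3* had 0.0989 and 0.0304 counts per basal count in *prdm1a-/-* replicates 1 and 2 and 0.0247 and 0.0146 in WT replicates 1 and 2. This was a log2 change of 2.002 in replicates 1 and 1.06 in replicates 2, and the genotypes did not overlap. *frem2b* changed by 1.27 and 0.75 on the same scale, also upward in both pairs, but the genotypes overlapped, with 0.0433 in *prdm1a-/-* replicate 2 against 0.0434 in WT replicate 1. *hmcn1*, in contrast, changed by 0.89 in replicates 1 and by 0.011 in replicates 2. Its genotypes did not overlap, but only narrowly, with 0.0486 in *prdm1a-/-* replicate 2 against 0.0483 in WT replicate 2. *fras1* changed by -0.14 and -0.085, and each *prdm1a-/-* ratio was below each WT ratio. This too was narrow, with 0.0862 in *prdm1a-/-* replicate 1 against 0.0868 in WT replicate 2. *lama5* changed by -0.41 and -0.25, also without overlap, and *frem2a* by 0.16 and -0.17, with overlap. Set against *tp63* alone, neither *frem3* nor *frem2b* overlapped between genotypes, while *hmcn1* overlapped and changed by 0.98 in replicates 1 and -0.20 in replicates 2. These ratios hold the same counts as the tests above, and how often those of other gene pairs do not overlap was not computed. The basal genes were chosen with their values known, and the part of epidermal cells in the differences of *frem3*, *frem2b* and *hmcn1* was not tested.

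Over the 4 libraries, the genes whose log2 CPM followed that of *fras1* most closely, each centred on its own mean and among 12669 genes with a mean of at least 5 CPM, were *slitrk6*, *anxa6*, ENSDARG00000104726 (a gene with only a clone name), *sult2st1* and *myo1eb*, with root mean square differences from 0.025 to 0.061 on the log2 scale. Among the genes described here *frem1a* was the nearest to *fras1*, at 0.18 and rank 211, and *frem3* the farthest, at 1.03 and rank 10803. Over only 4 libraries such likeness is a description, and it carries the difference between replicate numbers along with that between genotypes.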

How the data were processed

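After trimming, the authors mapped the paired reads to danRer11 using STAR 2.7.10b, and featureCounts gave the reads of each gene. The deposited values used here are these whole-number counts, without normalization. Gene models and counting options were not given in these sources. The library kit was directional, and whether strand was used in the counting is not stated. The deposited table also holds 4 columns of normalized log2 values and the authors' own comparison (fold changes and p-values), none of which was used. The 6 CUT&RUN samples were not analysed here.

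Genes were filtered with edgeR's filterByExpr (minimum count 10, minimum total 15), scaled by TMM and tested two-sided by quasi-likelihood F-tests in edgeR 4.0.16 (R 4.3.3), with genotype and the replicate number as terms, which leaves 1 residual degree of freedom. A gene was called at a Benjamini-Hochberg adjusted p under 0.05 over all 20007 genes tested. SEs were taken from the fold change and its F statistic. That statistic uses variance estimates partly shared across genes, so an SE does not measure the spread between the 2 pairs of libraries. Counting errors of log2 ratios cover counting alone. The alternatives were DESeq2 (1.42.0), limma-voom (limma 3.58.1), RLE size factors, 2 other filters, fits without the block and leaving out each library. The code was tested on simulated counts.

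Comparison within replicate number was part of how these genes were defined for description. The genes and lists were chosen with earlier results of these data known. All 10 genes are named, as are called genes of the 2 other fixed lists, or otherwise the 3 with the highest mean CPM, and the 5 genes nearest to *fras1*. Of the identifiers, 29201 (89.8%) had an entry in the table of gene names, 10 of the 11 described here among them. Symbols are those of the deposited table. The replicate numbers were checked for pairing by the deviations of same-numbered libraries from their genotype means (r = 0.70 over genes, not independent points). Replicate numbers separated on principal component 1 (68.4% of the variance) and genotypes on component 2 (19.9%).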

Additional observations from a re-analysis of the deposited data

How the results depend on the processing

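The call of *frem3* and *frem2b* held in each of 6 fits with the replicate block, and *hmcn1* joined them with DESeq2, limma-voom, no filter on low counts and a minimum of 10 counts in every library. No call held without the replicate block, where the 2 called identifiers became 0, both with edgeR (0 of the 11 at an unadjusted p under 0.05) and with DESeq2 (1 of the 11, *frem3*). Without the block the number of genes called among all tested moved from 203 to 0 with edgeR (376 at an unadjusted p under 0.05) and to 48 with DESeq2. With the block, 434 of 20007 genes were called with limma-voom, 128 of 20007 with RLE size factors and 636 of 26140 without a filter on low counts. The common dispersion was 0.0446 with the block and 0.255 without it.

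Leaving out each library in turn, without the block, gave 0 calls among these genes and 0 to 0 among all genes, with 258 to 385 at an unadjusted p under 0.05. Such fits hold one replicate number in a single genotype, so the difference between numbers enters the fold change by construction. The log2 fold change of *frem2b* was then between -0.10, when *prdm1a-/-* replicate 1 was left out, and 2.66, when WT replicate 1 was. It ranged from -0.46 to 0.95 for *fras1*, from -0.44 to 1.305 for *frem1a*, from -1.13 to 1.71 for *frem2a*, from -0.47 to 0.44 for *fbln1*, from -0.59 to 0.56 for *lama5* and from -0.48 to 0.19 for the smaller *hmcn2* identifier. That of *frem3* stayed above 0 (0.20 to 3.34), as did those of *hmcn1* (0.21 to 1.20) and the larger *hmcn2* identifier (0.029 to 0.63). That of *frem1b* stayed below 0 (-0.56 to -0.17). With the block, no gene described here changed direction in any fit.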
